A study of Capra hircus with 12 samples.

Results

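Genes for the import of proteins into mitochondria were followed through the yearly cycle of the cashmere follicle. They were picked by a rule on gene names, set with earlier results of these data known. The rule took names starting with TOMM, TIMM or MTX and a digit, and SAMM50, PAM16, DNAJC19, GRPEL1, GRPEL2, PMPCA, PMPCB and CHCHD4. This rule found 33 of the 20326 genes in the files, of which 10 had TOMM names, 12 had TIMM names and 11 had other names. TIMM23 and TIMM29 are not analysed here. All 33 genes were among the 16095 tested, which had to reach a value of 1 in 2 or more libraries.

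Nearly all mitochondrial proteins are encoded in the nucleus, made in the cytosol and brought into the organelle by translocases. The TOM complex forms the entry gate of the outer membrane, with receptors, a channel and small accessory subunits. Behind it, the SAM complex inserts barrel-shaped outer membrane proteins, small TIM chaperones and the CHCHD4 oxidoreductase serve the intermembrane space, and the TIM22 and TIM23 translocases serve the inner membrane. An ATP-driven motor at TIM23 pulls precursors into the matrix, where a processing peptidase cuts off their targeting signals. These roles are known mainly from yeast and human cells, and no role was tested in the goat here.

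The RNA was that of secondary hair follicles, which make the cashmere fibre, taken from the skin of 1.5 years old goats (Capra hircus). Anagen is the phase of growth (libraries of May and September), catagen that of regression (November, December) and telogen that of rest (February, March). A month is represented by 2 libraries, 1 female and 1 male, which gives 4 libraries a stage and 12 in all. Each stage has its own months, so stage and season cannot be told apart. No treatment or genotype is given for any group, and the labels do not say if an animal gave more than 1 library, so p-values measure only the spread between these samples. In such bulk samples, fewer cells of a type and less RNA per cell cannot be told apart.

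Values were deposited under a TPM heading, a unit scaled by transcript length, but library sums ran from 904623 to 1127797, and read depth is unknown. Markers of the labelled tissue were present, and none of the listed markers that were found was at 0 in all libraries. The summed inner root sheath markers (4 of 8 found) ran from 16146 to 20753 in anagen, 12328 to 18673 in catagen and 3506 to 12115 in telogen. The summed hair shaft keratins (5 of 8 found) ran from 932 to 1146, 800 to 1271 and 235 to 747 in the same order of stages. Basal epidermis and outer root sheath markers (3 of 4 found) summed to 12765 to 16334, 10125 to 15273 and 6439 to 9281 in that order. Markers of other skin tissue were present as well. Dermal fibroblast markers (5 of 5 found) summed to 1060 to 1728 in anagen, 602 to 1220 in catagen and 701 to 1554 in telogen. Differentiated epidermis markers (4 of 5 found) summed to 1383 to 3531, 1089.8 to 1944.5 and 1483 to 2752 in the same order. Sebaceous gland and fat markers (5 of 6 found) summed to 21.7 to 30.1, 21.3 to 32.9 and 31.7 to 55.0. Skeletal muscle markers (6 of 9 found) summed to 218 to 221 in May and to between 3.84 and 8.03 in every other library. Transcripts of the mitochondrial genome took 1.83 ± 0.413% of the signal in anagen, 2.99 ± 0.629% in catagen and 9.25 ± 3.18% in telogen (SD, n = 4 each), with the March male at 4.63%. Ribosomal protein transcripts took 19.8 ± 2.14%, 23.6 ± 2.01% and 14.7 ± 2.34%. On the first principal component of all tested genes (52.1% of the variance), the March male scored 22.97, the other telogen libraries 52.4 to 56.4 and the anagen and catagen libraries -35.7 to -6.82. The part of these library measures in the results on import genes was not tested.

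The small subunits of the outer membrane gate had the highest levels among the import genes. Over the 12 libraries, TOMM6 averaged 187 and TOMM7 186, followed by TOMM5 at 115, the chaperone TIMM13 at 108 and the receptor TOMM20 at 93.9. The lowest means were those of CHCHD4 at 7.96, TOMM34 at 3.55 and TOMM20L at 2.19. TOMM6 varied from 123 to 242 and TOMM7 from 40.8 to 343, so their order differed between libraries. The summed level of the 10 TOMM genes was 838 ± 26.3 in anagen, 832 ± 100 in catagen and 590 ± 49.8 in telogen (SD, n = 4 each). TOMM7 took a large part of this difference. Without it the TOMM sums were 554 ± 71.5, 614 ± 18.9 and 535 ± 40.7, which overlapped between anagen and telogen (493 to 648 and 498 to 590). Every telogen library still lay below every catagen library (597 to 632). The 12 TIMM genes summed to 529 ± 15.7, 532 ± 61.8 and 383 ± 46.6, with every telogen library (334 to 435) below every anagen and catagen library (487 to 619). The small TIM chaperones made up 329, 345 and 231 of the TIMM sum, and the TIMM genes of the inner membrane 200, 187 and 151. The heat map of the 33 genes shows most rows lower in telogen and a smaller number, led by TOMM20 and PMPCB, higher there.

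**Figure D1:**
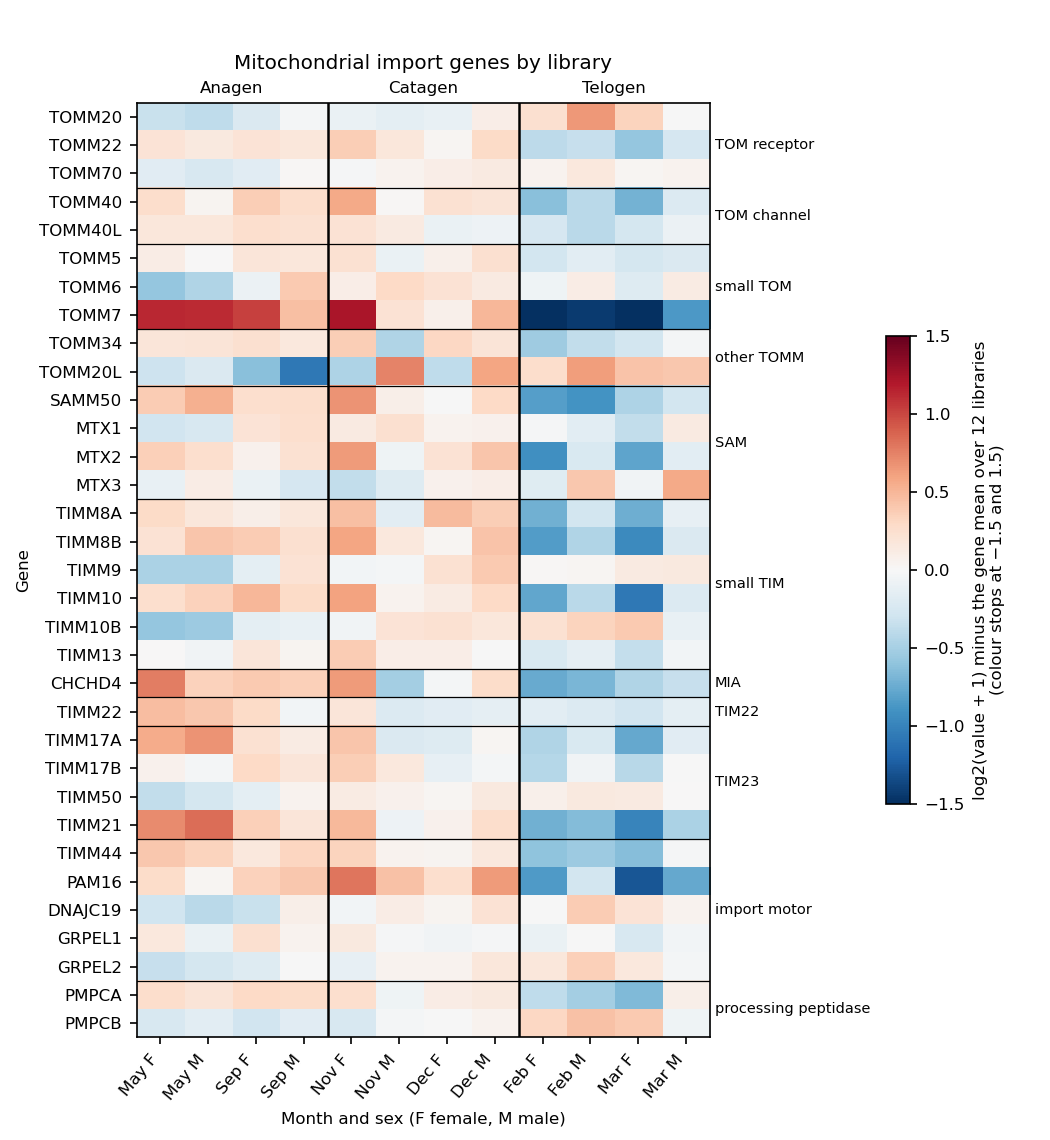
Heat map of log2(value + 1) minus the mean of the gene over the 12 libraries, with 1 row per gene grouped by role and 1 column per library ordered by month (F female, M male). TOMM7 is the row with the strongest contrast, at 40.8 to 79.9 in telogen and 153 to 343 elsewhere, while TOMM20 runs the other way, at 91.4 to 145 in telogen and 70.3 to 98.2 elsewhere.

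The comparison of telogen with catagen sets the months of rest, February and March together, against those of regression. More import genes were lower than higher in telogen: 16 of 33 fell, 2 rose and 15 did not pass (limma, adjusted p under 0.05), where 43.6% of all tested genes passed, 24.5% higher and 19% lower. The members called came to 54.55%, above the background of 43.6%, and the excess lay on the lower side. Their median log2 fold change was -0.33, against 0.07 over all genes tested. By membrane, 5 of the 10 TOMM genes fell and 1 rose (median -0.32), and 6 of the 12 TIMM genes fell with none higher (median -0.38). Of the 11 other genes 5 fell and 1 rose (median -0.23). For 12 genes all 4 telogen libraries lay below all 4 catagen libraries, against 15.9% of all genes tested, and for 0 genes they lay above, against 19.9%. With median-of-ratios scaling 0 members rose and 19 fell, and over all genes the split moved to 2965 higher and 3857 lower with that scaling and to 4371 and 2058 with equal library sums, against 3948 and 3063 as reported. Without the March male, the telogen library nearest the other stages, 2 members rose and 19 fell. This count is given without its share over all genes, so it is not read as particular to the import genes. The telogen libraries also had the lower hair shaft, inner root sheath, and basal epidermis and outer root sheath sums given above. Their mitochondrial-genome share was higher.

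The comparison of anagen with telogen sets the months of growth, May and September together, against those of rest. Import genes were mostly higher in anagen: 19 rose and 8 fell, 81.82% of the members, where 52.9% of all tested genes passed, 23.7% higher and 29.2% lower. The median log2 fold change was 0.45, against -0.07 over all genes. Of the TOMM genes 6 rose and 3 fell (median 0.40), of the TIMM genes 8 rose and 2 fell (median 0.56), and of the others 5 rose and 3 fell (median 0.18). For 18 genes all anagen libraries lay above all telogen libraries, against 20.1% of all genes, and for 4 they lay below, against 23.2%. The genes that did not pass were TOMM6, MTX1, MTX3, TIMM9, TIMM13 and GRPEL1. This comparison uses the same 4 telogen libraries as telogen against catagen, so the values of both are given side by side and their likeness is no independent result. Without both May libraries, the 2 with high skeletal muscle markers, 17 rose and 2 fell, where 2859 of all tested genes were higher and 3218 lower. Without the March male 20 rose and 8 fell, where 4039 of all tested genes were higher and 4704 lower. Over all genes the split with every library kept was 3811 higher and 4701 lower, and 4414 and 3838 with median-of-ratios scaling.

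**Figure D2:**
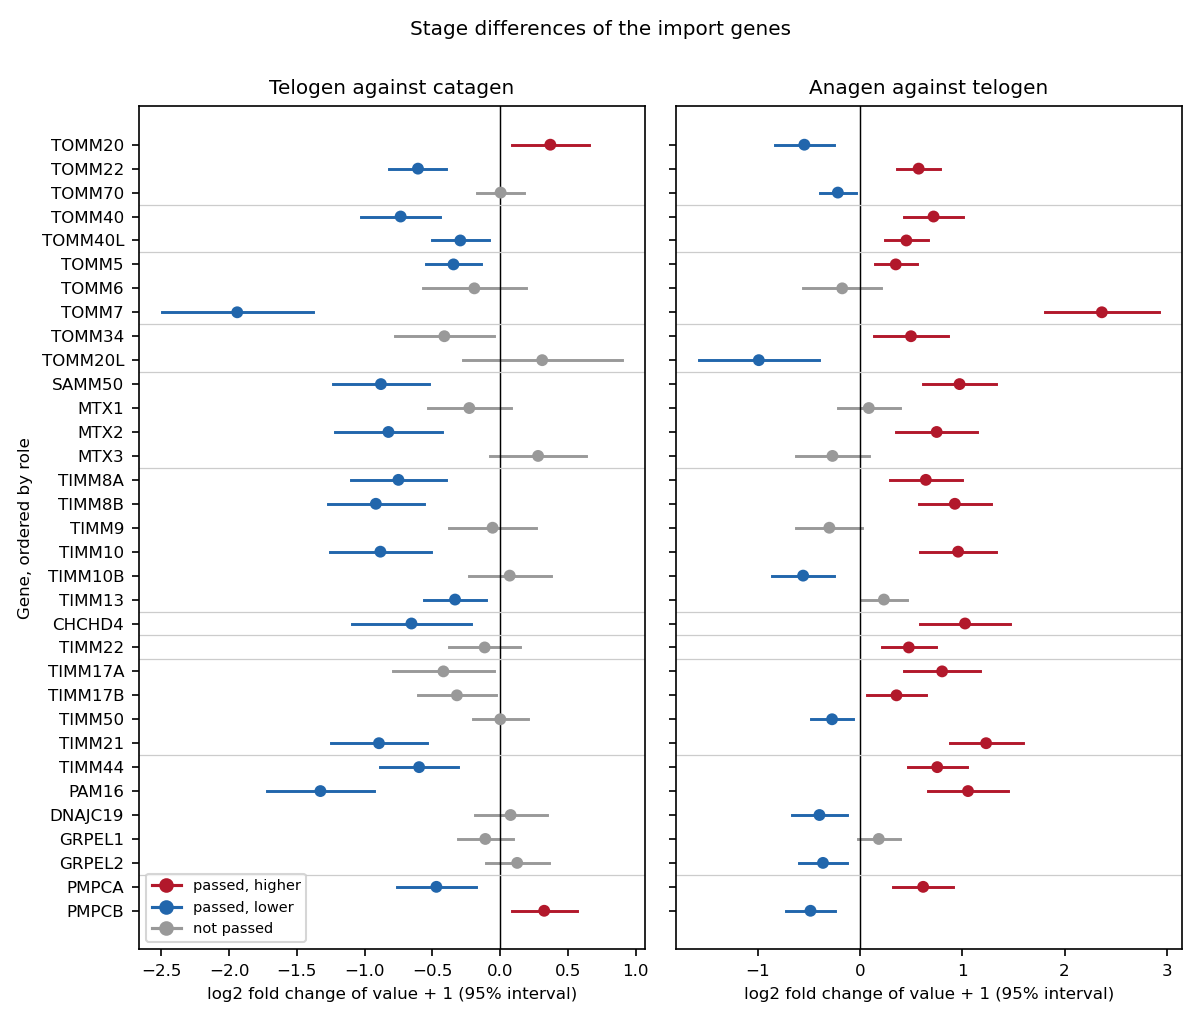
Log2 fold change of value + 1 with its 95% interval from limma for each import gene, telogen against catagen on the left and anagen against telogen on the right, ordered by role. Red marks genes that passed as higher, blue as lower and grey those that did not pass. TOMM7 lies farthest out in both panels (-1.94 and 2.37), and TOMM20 and PMPCB are the 2 genes that passed on the opposite side in telogen against catagen.

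The receptors of the outer membrane, which read the targeting signals of precursors, did not move together. TOMM20 (gene ID 100861088), the receptor for N-terminal presequences, had 72.7, 70.3, 79.3 and 90.2 in anagen (May female and male, September female and male), 85.7, 82.8, 85.4 and 98.2 in catagen (November and December in the same order of sex) and 109, 145, 116 and 91.4 in telogen (February and March). The February male was the highest and the March male fell inside the catagen range. TOMM20 rose in telogen by 0.37 on the log2(value + 1) scale (SE 0.132, adjusted p = 0.0373), with 115 ± 22.4 in telogen against 88.0 ± 6.92 in catagen (SD, n = 4 each). In anagen it was lower by 0.55 than in telogen (log2 fold change -0.55, SE 0.132, adjusted p = 0.00428), and there all 4 anagen libraries lay below all 4 telogen libraries. That call was lost without both May libraries (-0.43, adjusted p = 0.0627). The telogen rise was lost with median-of-ratios scaling (adjusted p = 0.0955) and without the November female (0.0787), November male (0.0852), December female (0.0757), February female (0.0580), February male (0.104) or March female (0.0708).

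TOMM22 (gene ID 102182677), the central receptor that also holds the complex together, went the other way. It had 95.4, 91.4, 95.2 and 92.7 in anagen, 107, 92.8, 84.1 and 101 in catagen and 62.5, 64.6, 54.8 and 69.4 in telogen. All telogen libraries were below all others. It fell by 0.61 in telogen (SE 0.0975, adjusted p = 0.000831), with 62.8 ± 6.06 against 96.2 ± 9.97 in catagen, and was 0.57 higher in anagen than in telogen (adjusted p = 0.000558). TOMM70 (gene ID 102178662), a receptor for carrier proteins that docks cytosolic chaperones, had 30.8, 29.4, 30.9 and 35.2 in anagen, 34.5, 36.3, 37.5 and 38.4 in catagen and 36.2, 38.9, 35.7 and 36.4 in telogen. Its telogen and catagen means, 36.8 ± 1.46 and 36.7 ± 1.69, were alike (log2 fold change 0.00, 95% interval -0.17 to 0.18, adjusted p = 0.973). It was lower in anagen than in telogen by a small amount (-0.22, SE 0.0801, adjusted p = 0.0360), with no overlap. That call was lost with median-of-ratios scaling (0.163), without the May female (0.0830), May male (0.0986), September female (0.0837), February female (0.0614) or February male (0.0821), and without both May libraries (0.252).

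The channel genes were lower in telogen. TOMM40 (gene ID 102172257), the barrel that forms the pore, had 41.9, 35.8, 45.0 and 41.7 in anagen, 51.8, 35.2, 40.7 and 39.7 in catagen and 22.2, 25.9, 20.9 and 30.0 in telogen. No telogen library reached the lowest of the other stages. TOMM40 fell by 0.73 in telogen (SE 0.135, adjusted p = 0.00148), with 24.8 ± 4.12 against 41.8 ± 7.03 in catagen, and was 0.72 higher in anagen than in telogen (adjusted p = 0.000925). Its paralog TOMM40L, at 12.4 to 13.2 in anagen, 10.2 to 12.8 in catagen and 8.04 to 10.2 in telogen, fell by 0.29 in telogen (adjusted p = 0.0287) and was 0.45 higher in anagen (0.00224). The telogen call of TOMM40L was lost with equal library sums (adjusted p = 0.205), also with mitochondrial-genome and ribosomal protein transcripts set aside (0.0959), and without either November library (female 0.0874, male 0.0761), either February library (female 0.0596, male 0.0759) or the March female (0.0552).

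TOMM7, one of 3 small subunits that shape the assembly and stability of the TOM complex, had the largest stage difference of all import genes. TOMM7 (gene ID 102170480) had 320, 317, 298 and 200.1 in anagen, 343, 170, 153 and 206 in catagen and 46.4, 53.2, 40.8 and 79.9 in telogen. The November female stood with the May libraries, the March male was the highest telogen library, and no telogen library overlapped another stage. TOMM7 fell by 1.94 in telogen (SE 0.259, adjusted p = 0.000426), with 55.1 ± 17.3 against 218 ± 86.2 in catagen (SD, n = 4 each). It was 2.37 higher in anagen than in telogen (SE 0.259, adjusted p = 0.000112), with 284 ± 56.5 against 55.1 ± 17.3. Its share of the TOMM sum was 33.9 ± 7.24% in anagen, 25.6 ± 6.69% in catagen and 9.25 ± 2.43% in telogen, with 12.9% in the March male.

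TOMM6 (gene ID 102190181), a small subunit of like level, did not follow TOMM7. It had 123, 134, 174 and 242 in anagen, 197, 226, 213 and 202 in catagen and 176, 199, 161 and 200.4 in telogen. The stages overlapped, and both May libraries were the lowest of the 12. Neither telogen against catagen (-0.19, 95% interval -0.57 to 0.19, adjusted p = 0.403) nor anagen against telogen (-0.17, 95% interval -0.56 to 0.21, adjusted p = 0.423) passed. TOMM5, the other small subunit, lay at 114 to 129 in anagen, 106 to 135 in catagen and 93.5 to 102 in telogen. It fell by 0.34 in telogen (adjusted p = 0.0119), a call lost with equal library sums (0.0551), and was 0.35 higher in anagen (0.00837).

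TOMM34 and TOMM20L, at the lowest levels, are not core parts of the gate. TOMM34 (gene ID 106502797), a cytosolic co-chaperone, had 4.04, 4.10, 4.28 and 3.98 in anagen, 4.75, 2.27, 4.53 and 4.11 in catagen and 2.07, 2.44, 2.68 and 3.37 in telogen. The November male lay among the telogen libraries, and telogen against catagen did not pass (-0.41, adjusted p = 0.0635). TOMM34 was 0.50 higher in anagen than in telogen (adjusted p = 0.0246), a call lost without the September female (0.0557), February female (0.0732) or February male (0.0550) and without both May libraries (0.0937). TOMM20L, at 0.41 to 1.55 in anagen, 1.15 to 3.99 in catagen and 2.57 to 3.60 in telogen, was lower in anagen than in telogen (-0.99, adjusted p = 0.00865). Its annotated span overlaps that of TIMM9.

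**Figure D3:**
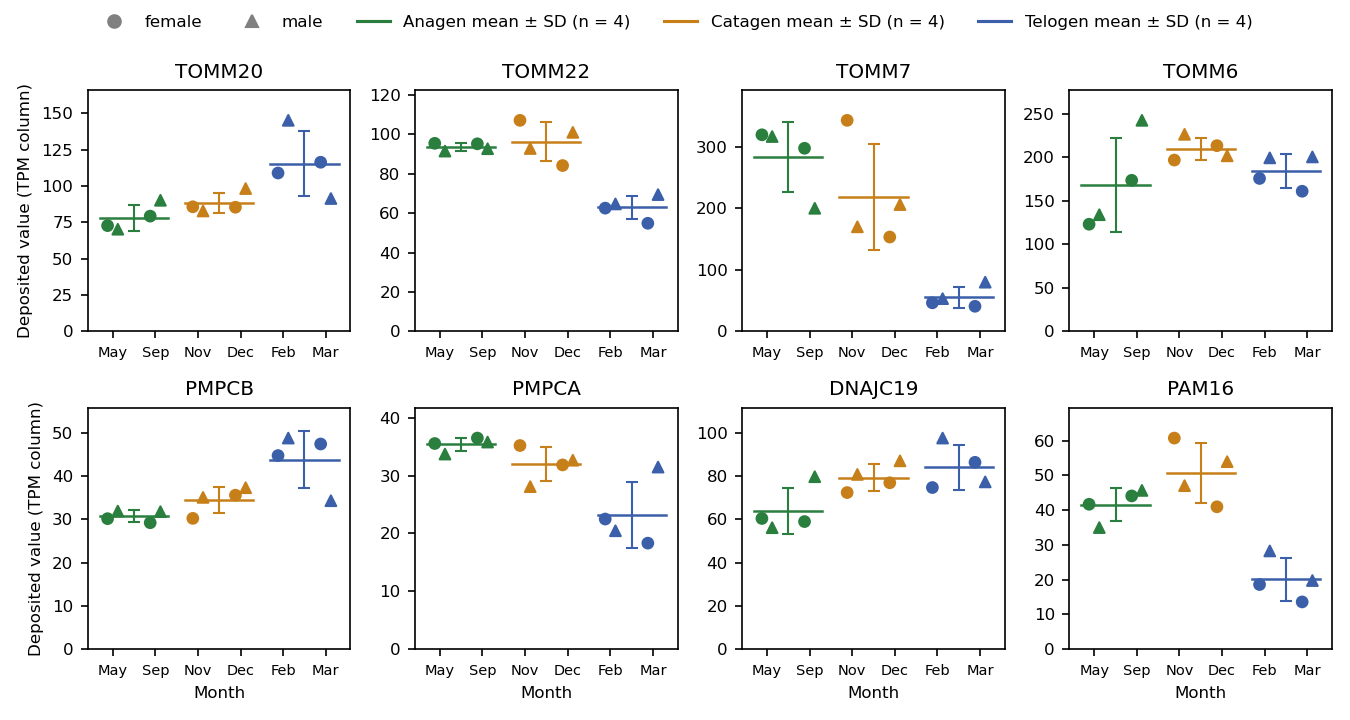
Deposited values of 8 import genes by month, circles for females and triangles for males, with the mean (line) and SD (bar) of the 4 libraries of each stage. TOMM22, TOMM7 and PAM16 show telogen libraries below all others (TOMM22 at 54.8 to 69.4), while TOMM20 and PMPCB are highest in February (means of 127 and 46.8). TOMM6 overlaps between stages, with means of 210 in catagen and 184 in telogen that did not pass as different. The telogen mean of DNAJC19 (84.0) is not below its catagen mean (79.3).

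At the SAM complex, the core barrel and 1 metaxin fell in telogen. SAMM50 (gene ID 102169842), the barrel that inserts other barrel proteins, had 45.0, 50.4, 41.2 and 41.5 in anagen, 55.6, 36.6, 34.2 and 42.6 in catagen and 18.96, 18.00, 24.7 and 28.3 in telogen. The telogen libraries did not overlap the others, and the February pair was lower than the March pair. SAMM50 fell by 0.88 in telogen (SE 0.164, adjusted p = 0.00160), with 22.5 ± 4.87 against 42.3 ± 9.54 in catagen, and was 0.97 higher in anagen (adjusted p = 0.000523). The metaxins are outer membrane partners of SAMM50. MTX2 fell by 0.82 in telogen (adjusted p = 0.00392), at 17.4 to 30.1 against 32.2 to 53.3 in catagen, and was 0.75 higher in anagen (0.00448). MTX1 and MTX3 passed in neither comparison, with telogen against catagen changes of -0.23 (95% interval -0.53 to 0.08) and 0.28 (-0.08 to 0.64).

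Of the 6 small TIM chaperones, which escort hydrophobic precursors across the intermembrane space, 4 fell in telogen. TIMM13 (gene ID 102183955), the partner of TIMM8A, had the highest level of them, with 107, 104, 122 and 110.0 in anagen, 140, 115, 115 and 107 in catagen and 91.5, 97.6, 83.5 and 104 in telogen. The telogen libraries lay below the catagen ones, but the March male overlapped anagen. TIMM13 fell by 0.33 in telogen (SE 0.106, adjusted p = 0.0228), with 94.2 ± 8.81 against 119 ± 14.2 in catagen, and anagen against telogen did not pass (0.23, adjusted p = 0.0787). Its telogen call was lost with quantile normalization (0.0553), with equal library sums (0.0953) and without the November female (0.0697), February female (0.0562) or March female (0.0639).

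The paralogs TIMM8A and TIMM8B, which pair with TIMM13, both fell. TIMM8B (gene ID 102174859) had 93.3, 107, 105 and 94.8 in anagen, 121, 89.5, 82.1 and 108 in catagen and 44.3, 58.4, 40.9 and 69.1 in telogen. No telogen library reached the others, and the females were lower than the males in both telogen months. It fell by 0.92 in telogen (SE 0.163, adjusted p = 0.00128), with 53.2 ± 13.1 against 100.2 ± 17.8 in catagen, and was 0.93 higher in anagen (adjusted p = 0.000652). TIMM8A fell by 0.75 (adjusted p = 0.00350), at 10.95 to 17.4 in telogen against 16.9 to 26.7 in catagen, and was 0.64 higher in anagen (0.00552).

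TIMM10 (gene ID 102171447), which forms a chaperone ring with TIMM9, had 66.9, 71.7, 79.9 and 68.7 in anagen, 85.7, 58.3, 61.5 and 69.1 in catagen and 32.4, 42.2, 26.2 and 48.5 in telogen. Again every telogen library was below every other library. TIMM10 fell by 0.88 in telogen (SE 0.172, adjusted p = 0.00196), with 37.3 ± 9.96 against 68.7 ± 12.2 in catagen, and was 0.96 higher in anagen (adjusted p = 0.000718). Its ring partner TIMM9 showed no such difference, at 18.5 to 20.2 in telogen and 17.7 to 24.2 in catagen (log2 fold change -0.06, 95% interval -0.38 to 0.27, adjusted p = 0.786). TIMM9 in anagen was 12.9 and 12.8 in May and 16.4 and 21.4 in September, and anagen against telogen did not pass (-0.30, adjusted p = 0.108). TIMM10B, a small TIM held at the TIM22 translocase, did not pass in telogen against catagen (0.07, adjusted p = 0.704). It was lower in anagen than in telogen (-0.56, adjusted p = 0.00541), at 7.46 and 7.63 in May, 10.4 and 10.7 in September and 10.7 to 15.5 in telogen, a call lost without both May libraries (0.0920).

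CHCHD4 (gene ID 102191090), the oxidoreductase that traps cysteine-rich proteins in the intermembrane space, had 13.3, 9.70, 10.1 and 9.84 in anagen, 12.1, 4.92, 7.28 and 9.23 in catagen and 3.98, 4.24, 5.18 and 5.63 in telogen. Anagen and telogen were apart, while the November male lay inside the telogen range. CHCHD4 was 1.03 higher in anagen than in telogen (SE 0.203, adjusted p = 0.00128), with 10.7 ± 1.73 against 4.76 ± 0.777. It fell by 0.65 in telogen relative to catagen (adjusted p = 0.0204). This call was lost without the November female (0.0639), December male (0.0537), February female (0.0575) or February male (0.0506).

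Among the TIM22 and TIM23 subunits of the inner membrane, TIMM21 had the largest difference and TIMM50 the smallest. TIMM21 (gene ID 102190279), which links TIM23 to the TOM complex and to the respiratory chain, had 26.6, 29.3, 20.6 and 18.2 in anagen, 22.6, 14.98, 16.7 and 19.3 in catagen and 9.21, 9.78, 7.50 and 11.1 in telogen. The 4 telogen libraries were the lowest of all, and the 2 May libraries the highest. TIMM21 fell by 0.89 in telogen (SE 0.165, adjusted p = 0.00152), with 9.40 ± 1.50 against 18.4 ± 3.30 in catagen, and was 1.23 higher in anagen (SE 0.165, adjusted p = 0.000189). TIMM50 (gene ID 102184935), the receptor of TIM23, had 40.3, 43.4, 47.2 and 54.4 in anagen, 57.1, 54.6, 53.5 and 58.1 in catagen and 55.3, 58.1, 57.5 and 52.6 in telogen. Telogen and catagen covered nearly the same range (log2 fold change 0.00, 95% interval -0.20 to 0.21, adjusted p = 0.992). TIMM50 was lower in anagen than in telogen (-0.27, adjusted p = 0.0266), a call lost with median-of-ratios scaling (0.103), without the May female (0.0924), May male (0.0694), February female (0.0508), February male (0.0588) or March female (0.0552), and without both May libraries (0.307).

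The channel paralogs of TIM23 did not pass in telogen against catagen, TIMM17A at -0.42 (adjusted p = 0.0662) and TIMM17B at -0.32 (0.0703). In anagen against telogen both rose, TIMM17A by 0.80 (adjusted p = 0.00218; 32.7 to 48.5 in anagen, 17.1 to 26.5 in telogen) and TIMM17B by 0.36 (0.0396; 41.6 to 52.7 and 31.3 to 42.1). The TIMM17B call was lost with equal library sums (0.0548), also with mitochondrial-genome and ribosomal protein transcripts set aside (0.0866), and without either September library (female 0.112, male 0.0751), the May female (0.0588), the March female (0.105) or the February female (0.115). TIMM22 (gene ID 102175157), the channel for carrier proteins, had 16.7, 15.9, 14.6 and 11.5 in anagen, 13.6, 10.04, 10.4 and 10.6 in catagen and 10.5, 10.1, 9.50 and 10.5 in telogen. Its anagen values were above the telogen ones, with May highest. TIMM22 was 0.48 higher in anagen than in telogen (SE 0.122, adjusted p = 0.00570), a call lost without both May libraries (0.0907), and telogen against catagen did not pass (-0.11, adjusted p = 0.469).

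The import motor genes within the name rule differed among themselves. PAM16 (gene ID 102185827), the J-like regulator that restrains the motor, had 41.7, 35.0, 44.1 and 45.6 in anagen, 60.7, 47.0, 40.9 and 53.9 in catagen and 18.6, 28.2, 13.6 and 19.7 in telogen. The stages did not overlap with telogen, and the March female was the lowest library. PAM16 fell by 1.33 in telogen (SE 0.183, adjusted p = 0.000460), with 20.02 ± 6.09 against 50.6 ± 8.55 in catagen, and was 1.06 higher in anagen (SE 0.183, adjusted p = 0.000605). DNAJC19 (gene ID 102191375), the J-protein counterpart of PAM16 at the motor, had 60.4, 56.1, 59.0 and 79.7 in anagen, 72.4, 80.7, 76.9 and 87.0 in catagen and 74.7, 97.6, 86.4 and 77.3 in telogen. It showed no telogen fall (0.08, 95% interval -0.19 to 0.34, adjusted p = 0.630). DNAJC19 was lower in anagen than in telogen (-0.40, SE 0.123, adjusted p = 0.0160), with the September male overlapping, a call lost without both May libraries (0.161).

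TIMM44, the scaffold that tethers the motor to TIM23, fell by 0.60 in telogen (adjusted p = 0.00395), at 14.1 to 22.4 against 23.2 to 28.9 in catagen, and was 0.76 higher in anagen (0.000659). The nucleotide exchange factors GRPEL1 and GRPEL2 did not pass in telogen against catagen, at -0.11 (adjusted p = 0.370) and 0.13 (0.361). GRPEL1 did not pass in anagen against telogen either (0.18, adjusted p = 0.119), while GRPEL2 was lower in anagen (-0.36, adjusted p = 0.0131; 11.2 to 14.5 in anagen, 14.2 to 18.8 in telogen), a call lost without both May libraries (0.140).

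The processing peptidase is a pair of a regulatory subunit (PMPCA) and a catalytic subunit (PMPCB), and the genes moved in opposite directions. PMPCB (gene ID 102190757) had 30.2, 31.9, 29.2 and 31.8 in anagen, 30.3, 35.1, 35.6 and 37.3 in catagen and 44.8, 48.8, 47.5 and 34.3 in telogen. The March male lay inside the catagen range, and the other telogen libraries were above all others. PMPCB rose by 0.33 in telogen (SE 0.111, adjusted p = 0.0310), with 43.9 ± 6.57 against 34.6 ± 3.04 in catagen, and was lower in anagen than in telogen (-0.48, adjusted p = 0.00306) without overlap. The telogen rise was lost with median-of-ratios scaling (0.102) and without either November library (female 0.0930, male 0.0536), either February library (female 0.0718, male 0.0835) or the March female (0.0799).

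PMPCA (gene ID 102171796) had 35.6, 33.7, 36.5 and 35.8 in anagen, 35.2, 28.1, 31.9 and 32.7 in catagen and 22.5, 20.5, 18.3 and 31.5 in telogen. Again the March male was the telogen library nearest the other stages. PMPCA fell by 0.47 in telogen (SE 0.136, adjusted p = 0.0145), a call lost with equal library sums (0.0616), and was 0.62 higher in anagen (adjusted p = 0.00239).

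Ratios of partner genes within a library, which no scaling of whole libraries can move, showed the splits between partners described above. Of 13 pairs of partners or paralogs, 6 ratios were higher in all 4 telogen libraries than in all 4 catagen libraries, and 9 were lower in all anagen than in all telogen libraries. No pair separated catagen from anagen. These counts describe pairs chosen with earlier results of these data known, with no test and no background of other pairs. TOMM20 over TOMM22 was 0.762 to 0.973 in anagen, 0.801 to 1.02 in catagen and 1.74, 2.25, 2.12 and 1.32 in the telogen libraries in the order given above. TOMM20 thus had the lower or like value of the 2 receptors outside telogen and the higher one in it. TOMM6 over TOMM7 averaged 0.651 ± 0.384, 1.07 ± 0.377 and 3.50 ± 0.665 in anagen, catagen and telogen (SD, n = 4 each). DNAJC19 over PAM16 averaged 1.54 ± 0.179, 1.60 ± 0.293 and 4.44 ± 1.31, with the March female highest at 6.36. PMPCB over PMPCA averaged 0.871 ± 0.0617, 1.09 ± 0.166 and 2.02 ± 0.664, but here the March male, at 1.09, lay within catagen. TIMM9 over TIMM10 averaged 0.222 ± 0.0605, 0.303 ± 0.0673 and 0.548 ± 0.160, so TIMM10 stayed the more abundant of the ring partners in every library. TOMM40 over TOMM40L, TIMM8A over TIMM13, TIMM17A over TIMM17B and MTX2 over MTX1 overlapped between all stages.

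**Figure D4:**
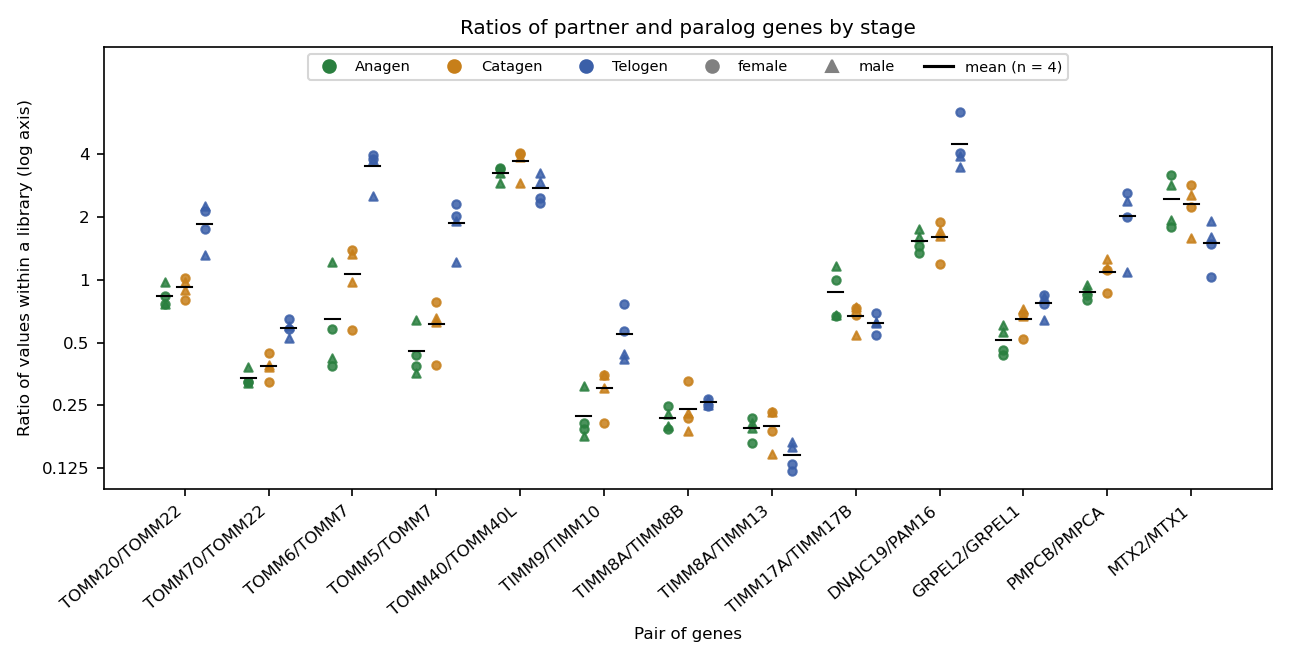
Ratio of the values of 13 pairs of import genes in each library on a log axis, by stage, with circles for females, triangles for males and a black line for the mean of 4 libraries. TOMM6/TOMM7, DNAJC19/PAM16 and TOMM20/TOMM22 have all telogen points above all anagen and catagen points, while TOMM40/TOMM40L and TIMM17A/TIMM17B overlap.

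Catagen was compared with anagen to ask what changes as growth ends. No import gene passed in limma, where 0.0559% of all tested genes passed. At an unadjusted p under 0.05 there were 9 of 33 import genes, against 15.7% of all genes tested. The median log2 fold change was 0.02, against -0.02 over all genes. TIMM10B was the only member with all catagen libraries (11.1 to 13.8) above all anagen libraries (7.46 to 10.7), against 3.4% of all genes, and had a log2 fold change of 0.49 (SE 0.141, adjusted p = 0.263). TOMM7 averaged 218 ± 86.2 in catagen and 284 ± 56.5 in anagen (-0.43, 95% interval -0.98 to 0.13, adjusted p = 0.422), and TIMM22 11.1 ± 1.63 and 14.7 ± 2.29 (-0.36, adjusted p = 0.263).

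Among the 6 months, 15 of 33 import genes (45.45%) differed by limma's F test, where 32.7% of all tested genes passed. They were TOMM20, TOMM22, TOMM40, TOMM40L, TOMM7, SAMM50, TIMM8B, TIMM9, TIMM10, TIMM10B, CHCHD4, TIMM17A, TIMM21, TIMM44 and PAM16. Months have 2 libraries each, and the count was 5 without the May female, the May male or the February male, 8 without the September female, September male, December male or February female, and 9 without the December female. In each of these runs fewer of all tested genes passed as well. The lowest month mean fell in February for 13 genes, among them TOMM7, SAMM50 and CHCHD4, in May for 9, among them TOMM20, TOMM6 and TIMM50, and in March for 8. The highest month mean fell in November for 8 genes (TOMM22, TOMM40, TOMM6, MTX2, TIMM8B, TIMM13, TIMM17B and PAM16). It fell in May for 7 (TOMM7, SAMM50, CHCHD4, TIMM22, TIMM17A, TIMM21 and TIMM44) and in February for another 7 (TOMM20, TOMM20L, TIMM10B, TIMM50, DNAJC19, GRPEL2 and PMPCB). For all the November genes but TOMM6, the November female was the highest of the 12 libraries. These month orders are ranks of means and were not tested.

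The month steps that carried the differences led into and out of telogen. In February against December, 9 members fell and none rose, where 16.6% of all tested genes passed, 8.9% higher and 7.69% lower. With median-of-ratios scaling 14 members fell, and over all genes the split moved to 960 higher and 2088 lower, against 1433 and 1238 as reported; with equal sums set on transcripts other than mitochondrial-genome and ribosomal protein ones it was 1002 and 1588. The falls were TOMM7 by 1.82 (adjusted p = 0.0212), SAMM50 by 1.01 (0.0188), PAM16 by 1.00 (0.0272), TIMM8A by 0.93 (0.0342), TIMM8B by 0.88 (0.0452), TIMM21 by 0.85 (0.0290), TOMM40 by 0.72 (0.0425), TIMM44 by 0.67 (0.0415) and TOMM22 by 0.53 (0.0402). The count was 0 without the December female, December male or February male, 1 without the February female and 4 without any 1 May or September library. Over all tested genes, fewer also passed in each of these runs, so the drop was not particular to the import genes. The calls of TOMM40 (adjusted p = 0.0538), TIMM8B (0.0588) and TIMM44 (0.0521) were lost with no filter on low values, and that of TOMM40 also with the replicate number as a block (0.0540). In May against March, 11 members rose and 4 fell, where 27.4% of all genes passed, 13.9% higher and 13.4% lower. TOMM7 rose by 2.46 (adjusted p = 0.00580), TIMM21 by 1.51 (0.00475), PAM16 by 1.17 (0.0114) and TIMM17A by 1.09 (0.0129), with CHCHD4, TIMM10, TIMM8B, SAMM50, TIMM44, TIMM22 and TOMM22 rising by 0.59 to 0.95. TIMM10B (-0.70), TIMM9 (-0.61), TOMM20 (-0.52) and TIMM50 (-0.39) were lower in May. The counts were 2 higher and 0 lower without the May female, May male or March female, and 2 lower without any 1 September, November or December library. Here too, fewer of all tested genes passed in each of these runs. The TOMM20 call was lost with no filter (adjusted p = 0.0559), with median-of-ratios scaling (0.0679) and with the replicate number as a block (0.0550), that of TIMM50 with median-of-ratios scaling (0.0701) and that of CHCHD4 with no filter (0.0656). With quantile normalization 12 rose and 7 fell, and with median-of-ratios scaling 13 rose and 2 fell. Over all genes the split was 2391 higher and 2216 lower with quantile normalization, and 2568 and 1677 with median-of-ratios scaling. It was 2239 and 2163 as reported, and 1805 and 2732 with equal sums of transcripts other than mitochondrial-genome and ribosomal protein ones.

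The other month steps gave no member in limma. Of all genes, 0.137% passed in September against May, 0.0186% in November against September, 0% in December against November and 0.00621% in March against February. At an unadjusted p under 0.05, September against May had 6 of 33 members, against 9.77% of all genes. The other steps had 1 member each, against 1.86% of all genes in November against September, 3.65% in December against November and 3.95% in March against February. Male against female gave 0 members, where 0.0559% of all genes passed, and 1 with an unadjusted p under 0.05 (7.36% of all genes), TOMM6 (0.20, adjusted p = 0.404). The interaction of sex and stage gave 0 members in limma, and 3, 1 and 0 of the 16095 genes tested, in telogen against catagen, anagen against telogen and catagen against anagen. At an unadjusted p under 0.05 there were 5, 4 and 1 members in the same order, against 13.2%, 10.8% and 1.2% of all genes.

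Other genes of import and of mitochondrial quality control outside the name rule, 41 of 42 found, were also more often lower than higher in telogen. In telogen against catagen 20 fell, 4 rose and 17 did not pass. The share called was 58.54%, against 43.6% of all genes tested (24.5% higher, 19% lower), and the median -0.27. ROMO1, a small inner membrane protein that regulates redox state, fell by 1.37 (44.4 ± 9.29 in telogen against 123 ± 58.3 in catagen), MINOS1, a subunit of the cristae organizer MICOS, by 0.49 and CHCHD3, another MICOS subunit, by 0.34. The genes that rose were OXA1L, the insertase for proteins made in the matrix (0.37, 72.9 ± 9.32 against 56.1 ± 2.27), DNAJC15 (0.34), AGK, a lipid kinase of the TIM22 complex (0.63), and the aminopeptidase XPNPEP3 (0.33). In anagen against telogen 21 rose, among them MTCH1 (0.45), ROMO1 (1.72) and MINOS1 (0.61), and 6 fell, among them OXA1L (-0.63), ATAD1 (-0.30) and DNAJC15 (-0.46), where 52.9% of all genes passed (23.7% higher, 29.2% lower). In catagen against anagen 0 passed, where 0.0559% of all genes did. At an unadjusted p under 0.05 there were 4 of 41, against 15.7% of all genes.

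Other gene sets of the mitochondrion and of translation are given beside the import genes, with no test between them. In telogen against catagen, 43.6% of all genes passed. There 38 of 59 nuclear respiratory chain and ATP synthase genes fell and 1, NDUFA4L2, rose (median -0.49). This list held NDUF, SDH and ATP5 names only, with no UQCR, CYC1 or nuclear COX gene, so it covers part of the chain. Of 77 mitochondrial ribosomal proteins 51 fell and 1 rose (-0.45), and of 77 cytosolic ribosomal proteins tested 49 fell and 1 rose (-0.75). The import genes had 16 and 2 of 33 (-0.33). Transcripts of the mitochondrial genome moved the other way, with 12 of 13 higher (median 1.84). In anagen against telogen the medians were 0.45 for import genes, 0.51 for respiratory chain subunits, 0.38 for mitochondrial ribosomal proteins, 0.43 for cytosolic ribosomal proteins and -2.52 for the mitochondrial genome. The share of members called in that comparison was 81.82% for the import genes, 66.1% for the respiratory chain, 62.34% for mitochondrial and 50.65% for cytosolic ribosomal proteins, against 52.9% of all genes tested. Import transcripts as a whole took 1704 ± 95.3 of every 1000000 units of summed signal in anagen, 1664 ± 72.8 in catagen and 1311 ± 134 in telogen (SD, n = 4 each), with the March male at 1507.

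**Figure D5:**
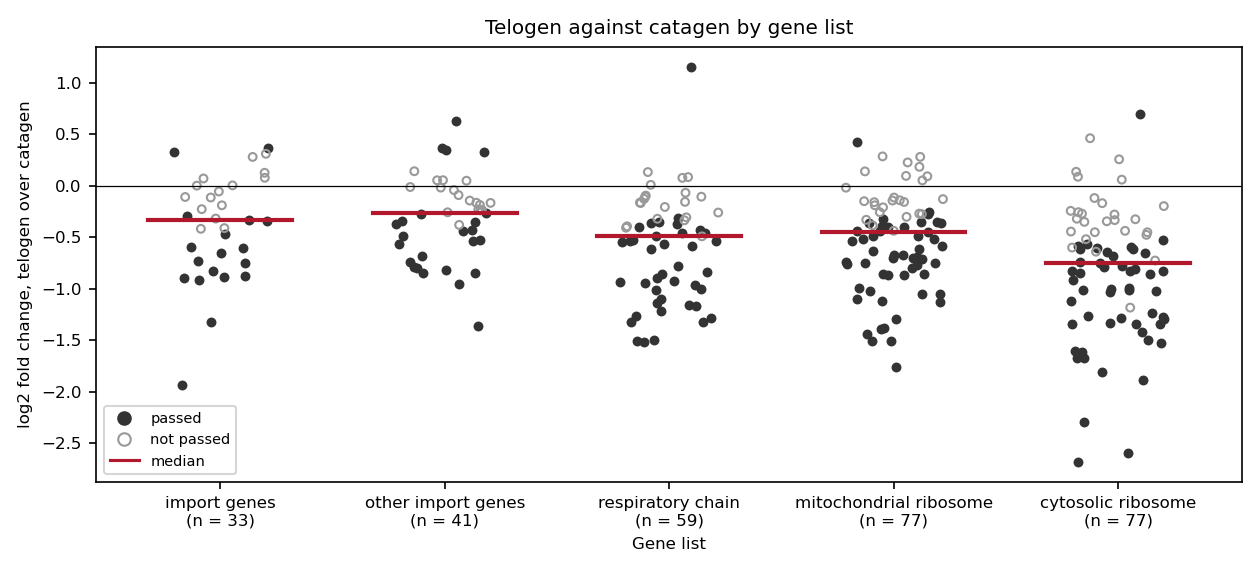
Log2 fold change of each gene in telogen against catagen by gene list, filled points for genes that passed in limma, open points for those that did not, and a red line for the median of the list. The median of the 33 import genes is -0.33, that of the respiratory chain list (NDUF, SDH and ATP5 names) -0.49 and that of the cytosolic ribosome -0.75. TOMM7 at -1.94 is the lowest import gene.

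Some values cannot be assigned to 1 gene with certainty. The paralog pairs TOMM40 and TOMM40L, TOMM20 and TOMM20L, TIMM8A and TIMM8B, TIMM17A and TIMM17B, and GRPEL1 and GRPEL2 may share reads. Of the 32 members with a position in the reference table, 10 overlap another annotated gene there, among them PMPCA (with SDCCAG3), PMPCB (with DNAJC2), TIMM8B (with SDHD), TOMM70 (with LNP1) and TOMM6 (with USP49 and PRICKLE4). How reads were divided between them is not given in the sources used here.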

How the data were processed

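RNA of secondary hair follicles was isolated with RNAiso Plus, per the labels' protocols, and 12 libraries were sequenced on the Illumina platform, per the series' design text. Reads were quantified with kallisto 0.46.1 and sleuth 0.30.0 was used in a role not stated, both per the submitters' processing notes. The genome build and annotation are not given in the sources used here. The deposited signal values, 1 per gene and library, stand under a TPM heading, but their sums differ between libraries, so the authors' files had been rescaled by a step that is not stated. Depth is therefore unknown, and no counting interval can be given. Libraries were joined by gene ID, since 26 symbols had been turned into dates. Symbols were read from the reference table (assembly ARS1.2), which matched 20294 of 20326 genes.

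Values were taken as log2(value + 1), and only genes reaching 1 in 2 or more libraries entered the tests. Fold changes on this scale understate the change of low genes. limma 3.58.1 under R 4.3.3 was fitted over all 12 libraries with a mean-variance trend, with 1 group per stage (4 libraries) or per month (2 libraries). Sex was tested with a term for each month, and sex by stage as an interaction. P-values are two-sided and adjusted by the Benjamini-Hochberg method over all 16095 genes, and a gene passed at an adjusted p under 0.05. The fit was also run on simulated normal values with no month or sex structure, and the outcome is not given here. No 2 libraries had equal values in more than 1.55% of the tested genes.

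The members, lists and partner pairs were chosen with earlier results of these data known. Values in each library are given, per stage comparison, for up to 5 rises and 5 falls among members that passed, did not overlap and averaged at least 5, and for the member of highest mean in each role. TOMM22 and PMPCA are given in full and TIMM9 in part as partners in the ratios, outside this rule. Of the other import genes, the 3 of highest mean that passed in each direction are named; AGK and XPNPEP3 in telogen against catagen complete a count of 4. MICOS13 was not found. Alternatives were quantile normalization, equal library sums with and without mitochondrial-genome and ribosomal protein transcripts, median-of-ratios scaling, an added constant of 0.1, no filter, a block for the replicate number, averaged months, the May libraries left out, and each library left out in turn. A call between stages is given as lost where any of these ended it. For calls between months, losses with 1 library left out are given as counts.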

Additional observations from a re-analysis of the deposited data

Results flagged for a closer look

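The 33 import genes and the sums of the TOMM, TIMM and other members were screened in each stage, 108 groups of 4 libraries, for a library whose gap to its nearest neighbour exceeded Dixon's 95% critical value. Chance flags about 1 in 20 groups, and 3 were found. CHCHD4 in anagen was 13.32 in the May female and 9.70 to 10.1 in the other anagen libraries. TIMM22 in catagen was 13.55 in the November female and 10.04 to 10.6 in the other catagen libraries. TIMM44 in telogen was 22.41 in the March male and 14.1 to 15.2 in the other telogen libraries.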

How the results depend on the processing

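No call reversed its direction under any alternative run. In telogen against catagen, the 2 higher members became 0 with median-of-ratios scaling and 0 to 2 with 1 library left out, and the 16 lower ones 13 to 19. In anagen against telogen, the 8 lower members became 2 without both May libraries and 6 to 10 with 1 library left out, and the 19 higher ones 17 to 20. Over all genes the lower ones went from 4701 to 3218 without both May libraries. In February against December, the 9 lower members became 14 with median-of-ratios scaling and 0 to 13 with 1 library left out. In May against March, the 4 lower members became 7 with quantile normalization, 2 with median-of-ratios scaling and 0 to 6 with 1 library left out, and the 11 higher ones 2 to 15. The 15 members that differed among months became 5 to 22. Every other count of members stayed at 0.

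The replicate number marks sex. The female-minus-male differences of 2 months correlated at -0.26 to 0.44 over 15 pairs of months and exceeded 0.1 in 9 of them. Because the number marks sex, these correlations cannot tell shared animals from sex. Nothing in the labels ties libraries of the same number to 1 animal or litter, so the number was not taken to pair the libraries. With the replicate number as a block the counts were 2 and 16 in telogen against catagen, 19 and 8 in anagen against telogen, 8 lower in February against December, 11 and 4 in May against March and 13 among months. The block ended the calls of TOMM40 in February against December (adjusted p = 0.0540) and TOMM20 in May against March (0.0550).

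Scaling moved the median of all genes by over 0.1 in 4 cases: -0.11 in February against December (median-of-ratios), -0.16 in September against May (equal sums), and 0.15 and 0.13 in March against February (equal sums, all transcripts and without mitochondrial-genome and ribosomal protein ones). With 2 libraries a month, month calls rest on single libraries. The signal values carry no depth, which limits low members such as TOMM20L.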
